A study of Mus musculus with 8 samples.

Results

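Imprinted genes were followed across immortalized mouse embryonic fibroblast (MEF) lines by RNA-seq. The members were 39 genes chosen by name as known imprinted genes or close neighbours in imprinted clusters, out of 55401 genes listed in the count table, and each was found by its gene symbol. The MEFs were isolated from bodies of E14.5 embryos of strain B6C3F1, without head and organs, and were immortalized by transfection with SV40 large T antigen. The 4 SLMAP3-/- lines (SLMAP3 knockout) and the 4 wild-type (WT) lines all carried this antigen, and each line gave 1 library. The mutant mice were made by recombining the floxed exon 3 of Slmap with a CMV-driven Cre, which acts broadly. SLMAP3 is a tail-anchored membrane protein found in the STRIPAK phosphatase complex. The labels number the lines as replicates but do not say how many embryos or litters they came from, so the p-values measure the spread between these lines.

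In genomic imprinting, DNA methylation that differs between the egg and the sperm genome marks control regions, and neighbouring genes are then expressed from the maternal or the paternal copy alone. Many imprinted genes act on growth of the embryo and the placenta, with a classic contrast between the paternally expressed growth factor Igf2 and the maternally expressed Igf2r and H19. The marks are copied at each cell division by maintenance methylation, and zinc finger proteins such as ZFP57 protect them in the early embryo. The counts sum both parental copies, so they show how much RNA a gene gave and not which copy gave it. In such bulk samples a lower level in fewer cells and a lower level in every cell cannot be told apart.

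The libraries held 49879059 to 63322486 estimated counts, and levels are in CPM, which divides counts by the TMM-adjusted size of each library. Slmap itself stood at 38.3 ± 4.94 CPM (SD, n = 4) in SLMAP3-/- and 137 ± 8.60 CPM (SD, n = 4) in WT lines. The log2 fold change of Slmap was -1.84 (SE 0.11, adjusted p = 0.00119 in edgeR's quasi-likelihood test), counted over all its transcripts. All 11 fibroblast markers passed the filter on low counts, and their summed level ran from 15830 to 21624 CPM in SLMAP3-/- and from 18881 to 23732 CPM in WT lines. Among them Dcn (0.323 to 14.8 CPM) and Lum (0.113 to 18.5 CPM), which encode small matrix proteoglycans, were low. The sum is mostly Fn1, Col1a1, Col1a2 and Vim. WT replicate 1 was lowest for Dcn and Lum and for Pdgfra, a receptor gene of mesenchymal cells, which stood at 17.4 CPM there against 79.0 to 179 CPM elsewhere. S100a4 was lowest there too, at 108 CPM. Thy1 was lowest in WT replicate 2, at 26.2 CPM against 125 CPM in WT replicate 1. Col1a2, Col3a1, Pdgfrb and Fn1 were lowest in SLMAP3-/- replicate 4, Col1a1 in SLMAP3-/- replicate 1 and Vim in SLMAP3-/- replicate 3. Of 34 markers of other cell types 17 passed. Among these were the endothelial Kdr (7.87 to 28.4 CPM) and Tek (1.55 to 12.2 CPM), the cartilage genes Sox9 (10.1 to 36.2 CPM) and Col2a1 (0.537 to 27.1 CPM), the muscle actin gene Acta1 (3.45 to 24.0 CPM), the neural Sox2 (3.41 to 15.4 CPM) and the stem cell gene Nanog (0.134 to 0.776 CPM). Pou5f1, Myod1 and Hbb-bs had 0 counts in every library. The neural progenitor marker Nes reached 410 CPM in WT replicate 1 against 69.5 to 155 CPM in the other lines, and the germ cell marker Ddx4 reached 16.4 CPM in SLMAP3-/- replicate 1 against 2.50 CPM or less elsewhere. Y-linked transcripts were abundant in 2 lines, SLMAP3-/- replicate 2 and WT replicate 3, and nearly absent in the other 6.

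Of the 39 imprinted genes 33 passed the filter on low counts, among 15461 genes that did. The 6 others were nearly silent in every line. Rtl1, a retrotransposon-derived placental gene, had 0 or 1 counts. Ascl2, a placental transcription factor, and Ddc, which makes dopamine and serotonin, had 0 to 2. Rasgrf1, a neuronal exchange factor, had 0 to 6, Usp29, a ubiquitin protease gene, 0 to 9 and Magel2, a neuronal ubiquitin ligase regulator, 0 to 15. Levels between genes are compared per kilobase of exon, over the joined exons of all annotated transcripts of a gene. These were 2460 bases for H19 and 11186 for Gnas. Single transcripts can be shorter, so the order of genes rests on this choice of length. Before division by it the mean over lines was 542 CPM for H19 and 1141 CPM for Gnas. By this measure H19, a maternally expressed long non-coding RNA, came first with a mean of 220 CPM per kilobase. Its lines ran from 17.0 to 711 CPM per kilobase and so overlapped the ranges of the next 5 genes. Gnas, which encodes the stimulatory G protein subunit, stood at 102 (91.9 to 112) CPM per kilobase. Grb10, an adaptor that restrains insulin and IGF signalling, stood at 57.9 (49.3 to 66.8) CPM per kilobase, and the amino acid transporter gene Slc38a4 at 42.5 (38.3 to 47.3). The ranges of these 3 genes did not overlap. Igf2r, the receptor that clears IGF2, had 29.8 CPM per kilobase, and its highest line, at 38.27, was just under the lowest of Slc38a4, at 38.29. Mest, a paternally expressed gene of the hydrolase fold family, had 29.2 CPM per kilobase and ranged from 2.35 to 73.5, across the whole range of Igf2r.

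**Figure D1:**
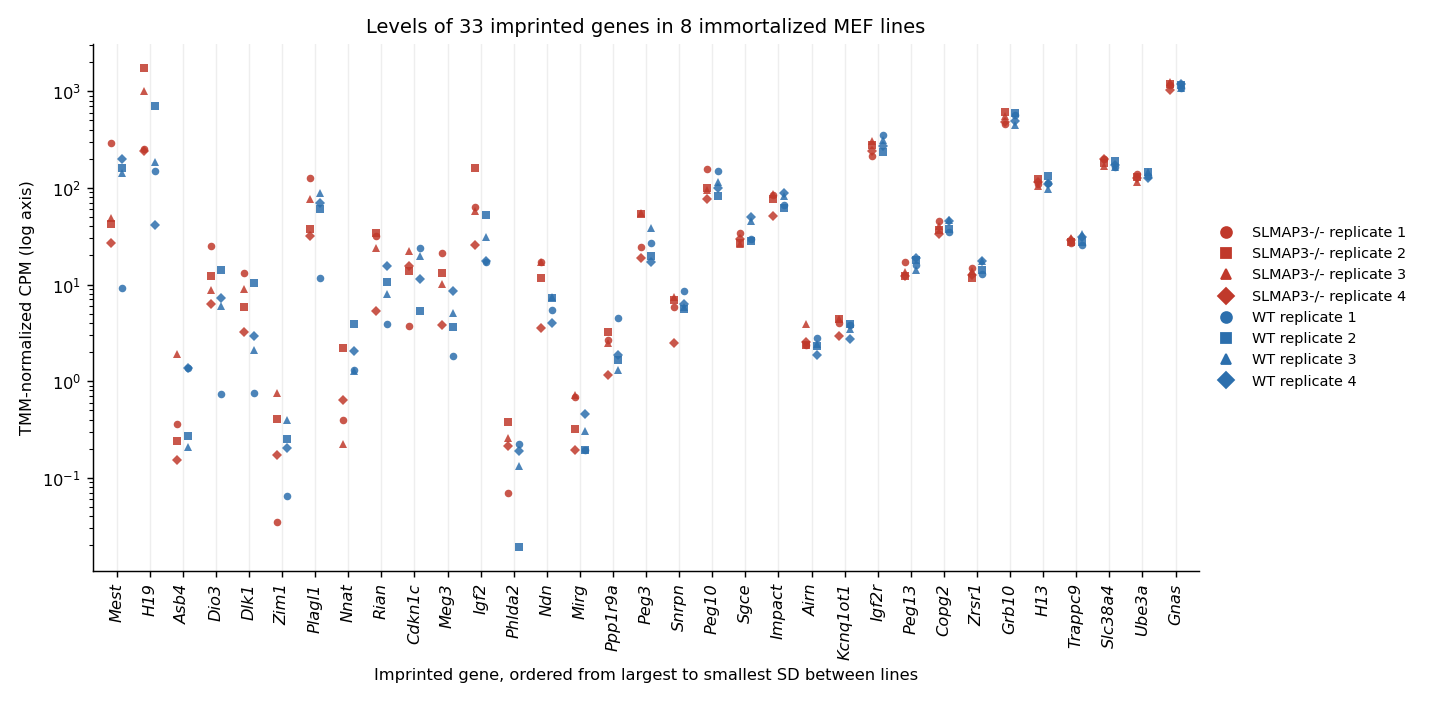
TMM-normalized CPM (log axis) of the 33 imprinted genes that passed the filter, in each of the 4 SLMAP3-/- (red) and 4 WT (blue) lines, with 1 marker shape per replicate number and genes ordered from the largest to the smallest spread between lines. Mest at the left runs from 9.26 to 290 CPM and Gnas at the right from 1028 to 1252 CPM, and in no gene do the red and blue points separate.

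The imprinted genes ranged from steady to highly variable. The spread of a gene is given here as the SD between lines of log2 CPM (prior count 2) after the genotype means were removed. Its median was 0.67 over the 33 imprinted genes and 0.28 over all 15461 tested genes. Without SLMAP3-/- replicate 4 the medians were 0.38 and 0.27, and with at least 10 counts in every line 0.47 and 0.25. Of the 33, 18 lay in the top 25% of all tested genes (SD above 0.54), 4 lay in the top 5%, and 11 lay below the median of all genes. The highest line exceeded the lowest by more than 4-fold in 14 of 33 imprinted genes, and the median ratio of the highest to the lowest line was 3.45 for imprinted genes and 1.73 for all tested genes. Since low counts widen the spread, each gene's dispersion in edgeR was also divided by the trend for genes of its level, and 17 of 33 were then in the top 25%, with a median ratio of 0.979 against 0.355 over all tested genes. By the allele known to be expressed, 8 of 11 maternally expressed genes, 9 of 17 paternally expressed genes and 1 of 5 genes with tissue-dependent imprinting were in the top 25% of the SD. These are descriptions, and the members were not compared with other lists by a test.

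**Figure D2:**
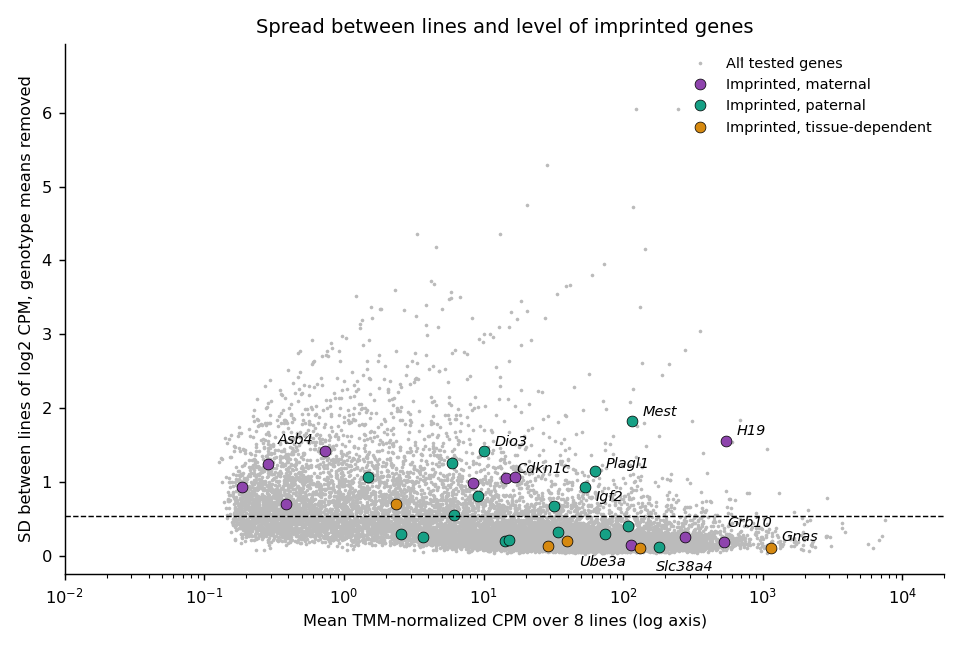
SD between lines of log2 CPM with genotype means removed against mean CPM (log axis) for all 15461 tested genes (grey) and 33 imprinted genes, coloured by the allele known to be expressed, with a dashed line at 0.54, the limit of the top 25%. Mest and H19 lie far above other genes of their level, whereas Gnas, Slc38a4 and Ube3a lie near the bottom.

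In the Igf2-H19 cluster both genes varied strongly. H19 lies on chromosome 7 at 142575529 to 142578143 (GRCm38, minus strand), and Igf2 at 142650766 to 142666816 on the same strand. H19 stood at 254, 1748, 999 and 241 CPM in SLMAP3-/- replicates 1 to 4 and at 151, 713, 185 and 41.8 CPM in WT replicates 1 to 4, a 41.8-fold range. Igf2, the fetal insulin-like growth factor, stood at 62.96, 162, 57.1 and 25.8 CPM in SLMAP3-/- and at 17.1, 52.0, 30.7 and 17.7 CPM in WT replicates 1 to 4. The genotypes overlapped for both genes, since WT replicate 2 was above SLMAP3-/- replicate 4 in each and above SLMAP3-/- replicate 1 for H19. H19 is transcribed from the maternal and Igf2 from the paternal copy, and yet the 2 genes varied together over the lines. Pearson's r of their log2 CPM over 8 lines was 0.86 (exact permutation p = 0.00727, adjusted p = 0.0491) and Spearman's rho 0.88 (exact permutation p = 0.00724, adjusted p = 0.0652). Without SLMAP3-/- replicate 2 and WT replicate 4, the lines farthest from the median of H19, r was 0.72, and with the genotype means removed it was 0.80. An exon of H19 holds the precursor of miR-675, which these libraries did not measure. Its mature sequences from RefSeq (GRCm38.p6, minus strand, chr7:142577112-142577133 and chr7:142577078-142577099) are shown because H19 is their primary transcript, with the seed, bases 2 to 8, in capitals.
mmu-miR-675-5p: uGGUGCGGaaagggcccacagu
mmu-miR-675-3p: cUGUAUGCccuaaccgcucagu

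The Dlk1-Dio3 cluster on chromosome 12 was the one in which most members varied together. Its paternally expressed genes are Dlk1, a non-canonical Notch ligand that holds back adipocyte differentiation, Dio3, which inactivates thyroid hormone, and Rtl1. Its maternally expressed members Meg3, Rian and Mirg are long non-coding RNAs that host small RNAs. In SLMAP3-/- replicates 1 to 4 Dlk1 (109452823 to 109463336, plus strand) stood at 13.2, 5.84, 8.98 and 3.20 CPM, against 0.758, 10.49, 2.08 and 2.91 CPM in WT replicates 1 to 4. Dio3 (110279068 to 110281097, plus strand) stood at 25.03, 12.2, 8.72 and 6.25 CPM in SLMAP3-/- and at 0.742, 14.2, 6.00 and 7.23 CPM in WT replicates 1 to 4. Both genes were highest in SLMAP3-/- replicate 1 and lowest in WT replicate 1, and WT replicate 2 was second highest in each. Meg3 (109541001 to 109571726, plus strand) stood at 21.2, 13.03, 10.2 and 3.78 CPM in SLMAP3-/- and at 1.81, 3.62, 5.05 and 8.54 CPM in WT replicates 1 to 4. Rian (109603940 to 109661716, plus strand) stood at 31.9, 34.0, 24.0 and 5.35 CPM in SLMAP3-/- and at 3.87, 10.7, 7.97 and 15.7 CPM in WT replicates 1 to 4. For these non-coding RNAs 3 of 4 SLMAP3-/- lines were above every WT line, and SLMAP3-/- replicate 4 lay among the WT lines. This was not particular to them. Ndn, in another cluster, also had 3 of 4 SLMAP3-/- lines above every WT line, but SLMAP3-/- replicate 4 was its lowest line. Igf2 had the same order of groups as Meg3 and Rian. The endothelial receptor gene Tek had the same order of groups, at 12.03, 12.2, 7.82 and 2.11 CPM in SLMAP3-/- and 1.55, 4.76, 3.88 and 2.70 CPM in WT replicates 1 to 4. Kdr, the other endothelial marker that passed the filter, did not have this order. It stood at 28.4, 17.5, 8.60 and 14.9 CPM in SLMAP3-/- replicates 1 to 4. Its WT lines ran from 7.87 to 22.6 CPM, so only SLMAP3-/- replicate 1 was above every WT line. Of 5 endothelial markers 2 passed the filter, with sums of 16.6 to 40.5 CPM in SLMAP3-/- and 9.47 to 27.5 CPM in WT lines, whereas the defining markers Pecam1 and Cdh5 had at most 12 and 10 counts. The part of such cells in these differences was not tested. Mirg was low throughout, from 0.192 to 0.723 CPM.

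Within this cluster the closest pairs were of genes known to be expressed from 1 parental copy. For Meg3 and Rian r was 0.94 (exact permutation p = 0.00067, adjusted p = 0.00904) and rho 0.90 (exact permutation p = 0.00456, adjusted p = 0.0616). For Dlk1 and Dio3, which lie 822 kb apart, r was 0.92 (exact permutation p = 0.00057, adjusted p = 0.00904) and rho 0.95 (exact permutation p = 0.00114, adjusted p = 0.0308). Without SLMAP3-/- replicate 1 and WT replicate 1, the lines farthest from the median of the first gene of each pair, r was 0.92 for Meg3 and Rian and 0.84 for Dlk1 and Dio3. With the genotype means removed it was 0.92 and 0.90. Rian and Dio3, from opposite copies, had an r of 0.77 (exact permutation p = 0.00714, adjusted p = 0.0491) and a rho of 0.79 (exact permutation p = 0.0279, adjusted p = 0.151). Their r was 0.68 without SLMAP3-/- replicate 2 and WT replicate 1, the lines farthest from the median of Rian. It was 0.55 without the lines farthest from the median of Dio3, and 0.70 with the genotype means removed. Other pairs across the copies also moved with the lines left out. Dlk1 and Rian had an r of 0.77 (exact permutation p = 0.0277, adjusted p = 0.0885) and a rho of 0.67 (exact permutation p = 0.0831, adjusted p = 0.280). Their r was 0.48 without SLMAP3-/- replicate 1 and WT replicate 1, and 0.68 without SLMAP3-/- replicate 2 and WT replicate 1. Dlk1 and Meg3 had an r of 0.70 (exact permutation p = 0.0505, adjusted p = 0.124) and a rho of 0.55 (exact permutation p = 0.171, adjusted p = 0.354), and r was 0.14 without SLMAP3-/- replicate 1 and WT replicate 1. Meg3 and Dio3 had an r of 0.78 (exact permutation p = 0.0159, adjusted p = 0.0717) and a rho of 0.62 (exact permutation p = 0.115, adjusted p = 0.282), and r was 0.18 without the same lines. The median r was 0.88 over the 4 pairs of 1 parental copy and 0.74 over the 6 pairs across copies. Apart from Dlk1 with Dio3, the pairs of 1 copy are all among Meg3, Rian and Mirg, which follow each other on the plus strand. The part of position and that of parental copy cannot be told apart here.

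The promoters of these 4 genes are shown because they make up the 3 pairs of the cluster with an adjusted p under 0.05, from RefSeq (GRCm38.p6, plus strand), from 250 bases before to 50 after each start. The motif searched was TGCCGC, the hexamer that ZFP57 binds when it is methylated, on both strands (GCGGCA on the strand shown), and matches are in capitals.
Dlk1 chr12:109452573-109452872: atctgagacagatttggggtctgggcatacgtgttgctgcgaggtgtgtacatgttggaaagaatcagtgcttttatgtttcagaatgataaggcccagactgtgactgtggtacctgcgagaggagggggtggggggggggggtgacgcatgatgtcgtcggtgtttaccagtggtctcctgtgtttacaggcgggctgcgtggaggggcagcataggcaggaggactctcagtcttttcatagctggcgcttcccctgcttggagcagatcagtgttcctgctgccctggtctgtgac
Dio3 chr12:110278980-110279279: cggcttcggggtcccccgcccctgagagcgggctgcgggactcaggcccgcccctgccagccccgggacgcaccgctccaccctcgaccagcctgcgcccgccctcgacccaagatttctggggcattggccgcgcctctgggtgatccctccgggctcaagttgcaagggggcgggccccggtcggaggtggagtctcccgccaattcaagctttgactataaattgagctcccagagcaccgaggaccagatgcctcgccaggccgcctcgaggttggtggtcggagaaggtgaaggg
Meg3 chr12:109540746-109541045: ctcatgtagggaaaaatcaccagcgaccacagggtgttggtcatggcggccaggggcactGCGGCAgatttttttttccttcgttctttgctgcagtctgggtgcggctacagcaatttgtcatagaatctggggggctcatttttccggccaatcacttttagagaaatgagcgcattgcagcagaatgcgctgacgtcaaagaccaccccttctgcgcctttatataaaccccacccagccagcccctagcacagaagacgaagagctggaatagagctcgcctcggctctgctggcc
Rian chr12:109603695-109603994: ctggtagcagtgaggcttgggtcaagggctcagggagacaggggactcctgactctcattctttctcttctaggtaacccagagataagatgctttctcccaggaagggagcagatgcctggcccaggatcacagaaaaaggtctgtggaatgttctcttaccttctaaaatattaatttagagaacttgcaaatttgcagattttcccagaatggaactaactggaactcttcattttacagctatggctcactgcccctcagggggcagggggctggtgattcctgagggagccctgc

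The Meg3 window held 1 match, and the windows of Dlk1, Dio3 and Rian held none of these letters. The Dio3 window had 25 CpG dinucleotides, that of Meg3 13, that of Dlk1 9 and that of Rian 0. Over all members, 31 genes had a RefSeq promoter (49 windows), and the motif was in 10 windows (20.4%) against 11.6% of 32851 promoters of the same length. Among the 10 were overlapping Mest windows, chr6:30737800-30738099 and chr6:30737803-30738102, which share their matches. Counted by gene, 9 of 31 members (29.0%) had it in at least 1 window, against 13.1% of 27025 genes. This share also depends on the number of windows per gene, with 49 windows in 31 members and 32851 in 27025 genes. The median number of CpG dinucleotides was 11 in members' windows and 7 in all windows. Methylation was not measured in these lines.

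**Figure D3:**
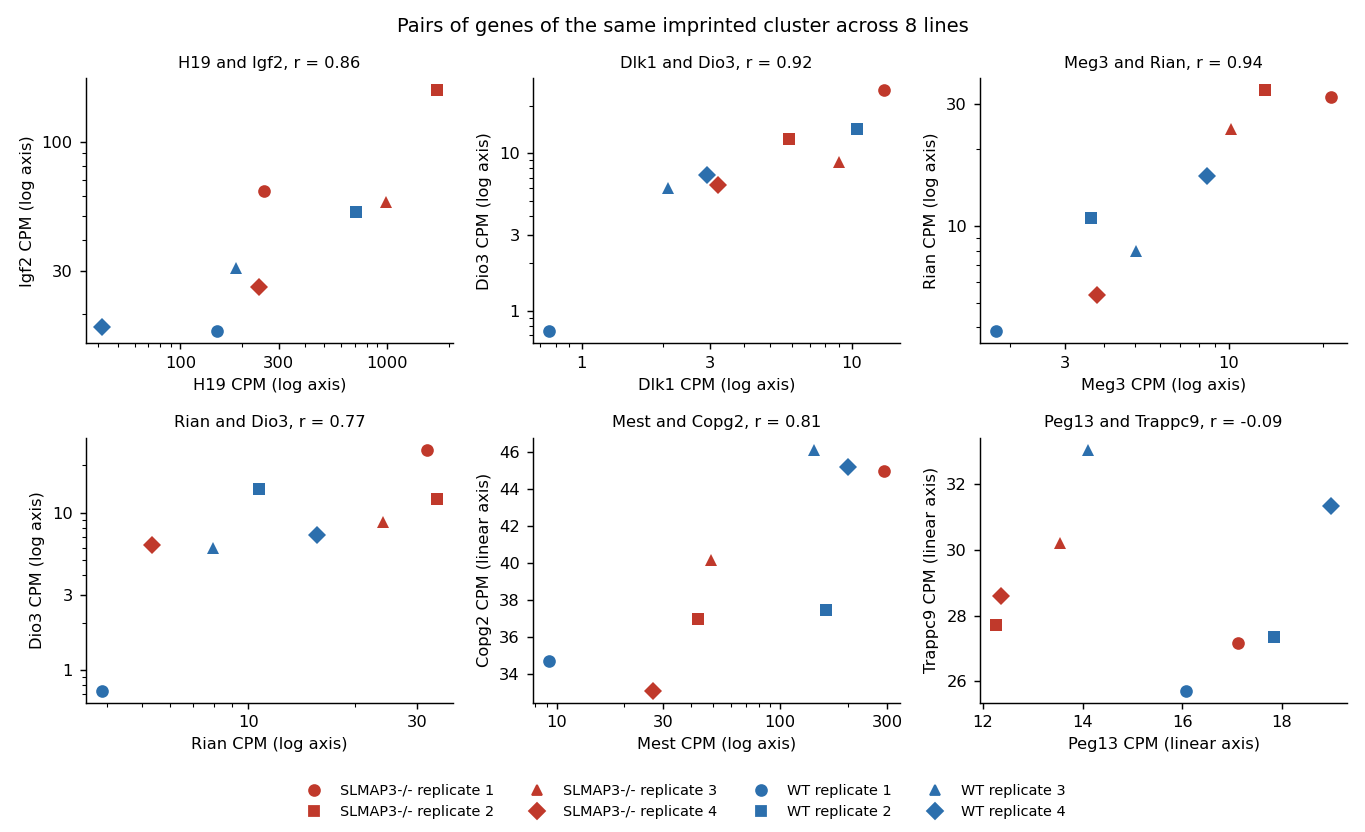
CPM of 6 pairs of genes of the same imprinted cluster in 8 lines, SLMAP3-/- in red and WT in blue with 1 marker shape per replicate number (log axes except where an axis is marked linear, and r computed on log2 CPM). H19 with Igf2, Dlk1 with Dio3 and Meg3 with Rian lie along a rising line (r of 0.86, 0.92 and 0.94), whereas Peg13 and Trappc9 show no common order (r = -0.09).

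Over all clusters 27 pairs of tested members of 1 cluster were compared, by r and by rho, and p-values were adjusted over the 27 pairs for each measure. Besides the 4 pairs above, with an adjusted p of r under 0.05, 6 had an unadjusted exact permutation p under 0.05, and all 10 had a positive r. In all, r was above 0 in 21 pairs and below 0 in 6. By rho only Dlk1 and Dio3 had an adjusted p under 0.05. The median r was 0.53 within clusters and 0.10 over 501 pairs of members of different clusters. Over 15427 pairs of adjacent tested genes of the whole genome it was 0.14. All of these pairs share the same 8 libraries. The 10 pairs of Dlk1-Dio3 had a median of 0.77 and the 17 pairs of other clusters 0.28.

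The 4 pairs depended on the lines that entered. With any 1 line omitted, r stayed between 0.87 and 0.95 for Dlk1 and Dio3 and between 0.91 and 0.96 for Meg3 and Rian. The adjusted p of both pairs was 0.0509 without SLMAP3-/- replicate 1 and 0.118 without WT replicate 1, and under 0.05 without any other line (exact permutation tests). For H19 and Igf2 r stayed between 0.79 and 0.91 and for Rian and Dio3 between 0.66 and 0.83, but their adjusted p stayed under 0.05 only without WT replicate 2 (0.0375 and 0.00714). Without any other line it was 0.0571 to 0.118 for H19 and Igf2 and 0.0804 to 0.276 for Rian and Dio3.

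Mest and Plagl1, both paternally expressed, were among the most variable members outside these clusters. Mest (chromosome 6, 30723547 to 30748465, plus strand) stood at 290, 42.7, 48.7 and 26.9 CPM in SLMAP3-/- and at 9.26, 161, 142 and 202 CPM in WT replicates 1 to 4. Within each genotype 1 line went against the others, with SLMAP3-/- replicate 1 the highest and WT replicate 1 the lowest of all 8. Plagl1 (chromosome 10, 13060504 to 13131694, plus strand), a zinc finger transcription factor, stood at 126, 37.7, 77.6 and 31.8 CPM in SLMAP3-/- and at 11.8, 60.8, 88.7 and 70.6 CPM in WT replicates 1 to 4. It had the same highest and lowest lines as Mest. Copg2, a coat protein gene that converges on Mest and overlaps its exons on the opposite strand, ranged only from 33.1 to 46.1 CPM. Its r with Mest was 0.81 (exact permutation p = 0.0216, adjusted p = 0.0833) and rho 0.76 (exact permutation p = 0.0368, adjusted p = 0.165), and r was 0.76 without SLMAP3-/- replicate 1 and WT replicate 1. The kit marked strand, but whether the counting used it is not given in the sources used here.

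The promoters of Mest and Plagl1 are shown as examples of windows with the motif, 2 matches in Mest and 1 in Plagl1, in capitals as above (RefSeq, GRCm38.p6, plus strand). Of the other members in the top 25% of the SD, Igf2, Meg3, Nnat, Snrpn and Zim1 held it in 1 window each. Dio3, Dlk1, Asb4, Rian, Mirg, Ndn, Peg3, Phlda2 and Ppp1r9a had no match, and H19 and Cdkn1c had no window. Of the steadier tested members, Grb10 and Copg2 held it in 1 window each. Gnas, Slc38a4, Igf2r, Airn, Kcnq1ot1, Ube3a, Zrsr1 and H13 had no match. Another Mest window, chr6:30733256-30733555, had 0 matches. A link between the motif and the spread was not tested.
Mest chr6:30737800-30738099: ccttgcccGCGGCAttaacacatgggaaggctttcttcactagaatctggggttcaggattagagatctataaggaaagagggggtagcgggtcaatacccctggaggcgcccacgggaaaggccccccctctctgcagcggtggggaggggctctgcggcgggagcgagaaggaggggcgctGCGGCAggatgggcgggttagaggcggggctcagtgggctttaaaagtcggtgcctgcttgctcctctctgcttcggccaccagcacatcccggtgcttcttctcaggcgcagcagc
Plagl1 chr10:13090582-13090881: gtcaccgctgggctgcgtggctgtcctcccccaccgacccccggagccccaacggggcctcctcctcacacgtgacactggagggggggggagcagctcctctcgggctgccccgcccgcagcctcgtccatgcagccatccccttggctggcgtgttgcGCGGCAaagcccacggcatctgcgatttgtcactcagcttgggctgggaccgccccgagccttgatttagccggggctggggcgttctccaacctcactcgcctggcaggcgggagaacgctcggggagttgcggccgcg

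The cluster around Kcnq1ot1 on chromosome 7 held a steady and a variable gene. Cdkn1c, which encodes the cell cycle inhibitor p57, stood at 3.70, 13.9, 22.0 and 15.5 CPM in SLMAP3-/- and at 23.6, 5.28, 19.7 and 11.4 CPM in WT replicates 1 to 4. It was lowest in SLMAP3-/- replicate 1 and highest in WT replicate 1, the reverse of Mest. Kcnq1ot1, the paternal long non-coding RNA antisense to Kcnq1, ranged only from 2.75 to 4.37 CPM, in libraries made from polyadenylated RNA. Phlda2, a placental growth inhibitor, had 1 to 19 counts. Its r of 0.76 with Cdkn1c (exact permutation p = 0.0328, adjusted p = 0.0885; rho 0.62, exact permutation p = 0.115, adjusted p = 0.282) turned to -0.14 without SLMAP3-/- replicate 1 and WT replicate 2. In the cluster of Igf2r, the receptor gene stood at 213, 277, 309 and 243 CPM in SLMAP3-/- and at 356, 233, 313 and 271 CPM in WT replicates 1 to 4, with the genotypes overlapping. Airn, the paternal RNA antisense to Igf2r, ranged from 1.87 to 3.89 CPM.

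Asb4, Nnat and Zim1 were low and uneven. Asb4, a placental and endothelial ubiquitin ligase subunit, stood at 0.364, 0.240, 1.90 and 0.153 CPM in SLMAP3-/- and at 1.35, 0.271, 0.208 and 1.36 CPM in WT replicates 1 to 4. Nnat, a small membrane proteolipid of neurons, stood at 0.398, 2.18, 0.225 and 0.633 CPM in SLMAP3-/- and at 1.29, 3.91, 1.29 and 2.06 CPM in WT replicates 1 to 4. Zim1, a zinc finger gene beside Peg3, stood at 0.0346, 0.400, 0.755 and 0.173 CPM in SLMAP3-/- and at 0.0645, 0.251, 0.397 and 0.204 CPM in WT replicates 1 to 4, which is 2 to 47 counts. Nnat was lowest in SLMAP3-/- replicate 3, where Asb4 and Zim1 were highest. Peg3, a paternally expressed zinc finger regulator of growth, was well expressed, at 17.2 to 55.1 CPM. In the Snrpn cluster, Ndn, which encodes the growth suppressor necdin, ranged from 3.51 to 17.1 CPM and Snrpn, a splicing factor gene whose exons overlap Snurf, from 2.45 to 8.47 CPM, whereas the ubiquitin ligase gene Ube3a was steady at 115 to 146 CPM. In the Peg10-Sgce cluster, the retrotransposon-derived Peg10 ranged from 77.0 to 156 CPM, its divergent neighbour Sgce, a sarcoglycan gene, from 26.4 to 50.3 CPM, and Ppp1r9a, an actin-binding scaffold gene, from 1.17 to 4.45 CPM.

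Gnas, Grb10 and Slc38a4, among the most abundant members, varied little. Gnas stood at 1167, 1187, 1252 and 1028 CPM in SLMAP3-/- and at 1075, 1155, 1070.4 and 1196 CPM in WT replicates 1 to 4. Grb10 stood at 459, 608, 559 and 485 CPM in SLMAP3-/- and at 568, 599, 448 and 488 CPM in WT replicates 1 to 4. Slc38a4 stood at 202, 182, 171 and 201 CPM in SLMAP3-/- and at 163, 191, 164 and 174 CPM in WT replicates 1 to 4. In these 3 genes the highest line exceeded the lowest by 1.22-, 1.36- and 1.24-fold. H13, which encodes a signal peptide peptidase, stayed between 97.1 and 132 CPM, and Trappc9, a trafficking complex gene, between 25.7 and 33.04 CPM. Peg13, a non-coding RNA within Trappc9, ranged from 12.3 to 18.98 CPM, and its r with Trappc9 was -0.09 (exact permutation p = 0.823, adjusted p = 0.979; rho -0.10, exact permutation p = 0.840, adjusted p = 0.872). Without SLMAP3-/- replicate 2 and WT replicate 4 it was -0.57. Zrsr1, a splicing factor retrogene whose exon overlaps Commd1, ranged from 11.6 to 17.6 CPM, and Impact, a translation regulator, from 51.8 to 89.0 CPM. In all, 13 of 33 imprinted genes kept the highest line under 2-fold of the lowest, where the median ratio over all tested genes was 1.73.

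The SLMAP3-/- lines were then compared with the WT lines. In edgeR's quasi-likelihood test 0 of 33 imprinted genes had an adjusted p under 0.05, where 1 gene of 15461 did (0.00647%), namely Slmap. At an unadjusted p under 0.05 there were 2 imprinted genes of 33, where 1.81% of all tested genes had one. Both, Igf2 and Meg3, were higher in SLMAP3-/- lines (0.964% of all tested genes), and 0 were lower (0.847%). By DESeq2 there were 5 of 33 (Igf2, Meg3, Rian, Ndn and Nnat) where 2.68% of these genes had one. DESeq2 gave an adjusted p under 0.05 to 0 imprinted genes and to 0.0325% of 33816 genes. In 0 of 33 imprinted genes did the genotypes not overlap, against 1.25% of all tested genes. Of the 33, 19 had a log2 fold change above 0 (49.5% of all tested genes) and 14 below 0, with a median of 0.04 against -0.0014 over all tested genes.

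The largest mean differences were in the variable genes, with standard errors to match. Igf2 averaged 76.9 ± 58.8 CPM (SD, n = 4) in SLMAP3-/- and 29.4 ± 16.3 CPM (SD, n = 4) in WT lines. The fitted log2 fold change of Igf2 was 1.39 (SE 0.57), with p = 0.0396 and an adjusted p of 1.00 in edgeR's quasi-likelihood test, and p = 0.114 in a two-sided exact permutation test. For Meg3 the log2 fold change was 1.34 (SE 0.58), with p = 0.0475 and an adjusted p of 1.00 in edgeR's quasi-likelihood test and p = 0.114 in the exact permutation test, whose smallest p for 4 against 4 lines is 0.0286. The log2 fold changes of Rian (1.32, SE 0.58), H19 (1.57, SE 0.92), Ndn (1.04, SE 0.45), Dlk1 (0.94, SE 0.75) and Dio3 (0.89, SE 0.75) were also positive without passing the unadjusted threshold in edgeR. Nnat had the most negative log2 fold change, at -1.32 (SE 0.72). Mest, with the widest spread, had -0.33 (SE 0.96), an error larger than the difference. With any 1 line omitted Mest ran from -1.70, without SLMAP3-/- replicate 1, to -0.01, without SLMAP3-/- replicate 4. The steady genes were held more tightly, with log2 fold changes of 0.04 (SE 0.10) for Gnas, 0.13 (SE 0.09) for Slc38a4, -0.17 (SE 0.16) for Igf2r and -0.11 (SE 0.09) for Ube3a.

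Single lines and the fit moved these values. The log2 fold change of Igf2 was 0.73, without SLMAP3-/- replicate 2, to 1.81 and that of Meg3 0.92 to 1.79 with any 1 line omitted. That of H19 was 0.87 without SLMAP3-/- replicate 2 and 2.68 without WT replicate 2. Dlk1 ran from 0.57 to 2.03 and Dio3 from 0.37 to 1.49, the lower values without SLMAP3-/- replicate 1 and the higher without WT replicate 2. Nnat ran from -2.34, without SLMAP3-/- replicate 2, to -0.85, without WT replicate 2. The number of imprinted genes with an unadjusted p under 0.05 was 4 without SLMAP3-/- replicate 4 or without WT replicate 2, 1 without SLMAP3-/- replicate 1, 2 or 3 or WT replicate 1, 0 without WT replicate 3, and 2 without WT replicate 4. With Y-linked expression as a covariate it was 0. The part of embryo sex in these differences was not tested further.

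**Figure D4:**
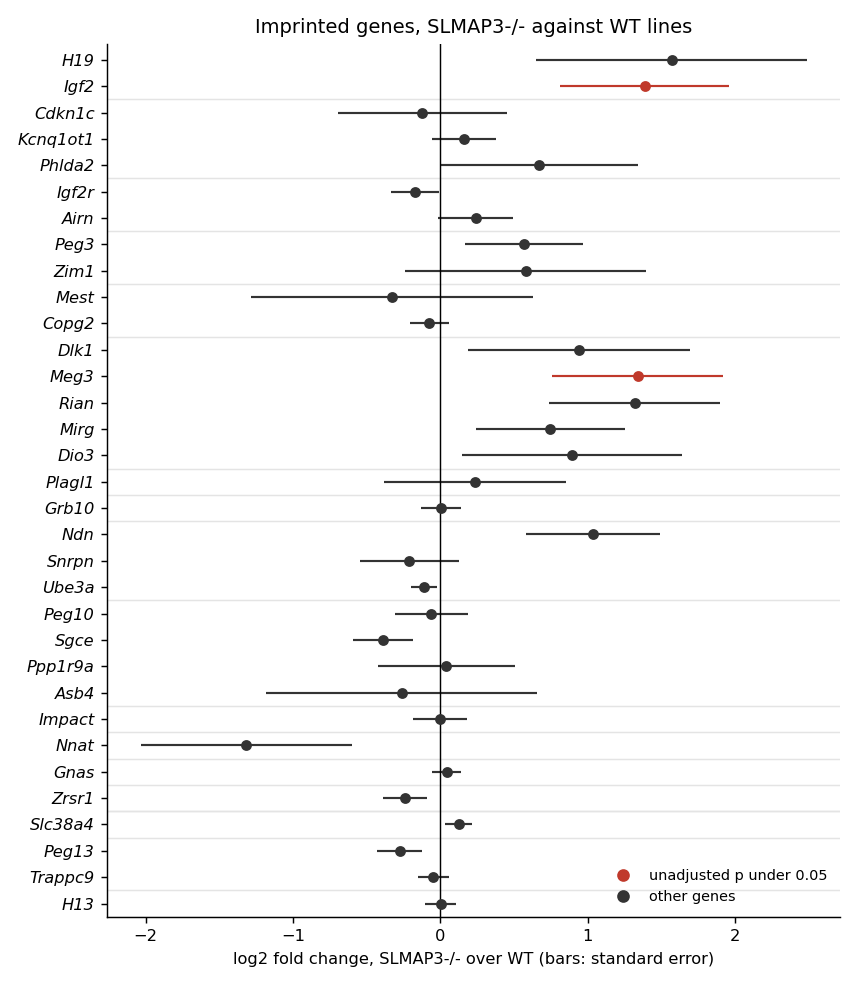
Log2 fold change of SLMAP3-/- over WT lines in edgeR for 33 imprinted genes grouped by cluster, with bars of 1 standard error (4 lines per genotype). Igf2 and Meg3, in red, have an unadjusted p under 0.05, and the bars are wide for H19 and Mest (SE 0.92 and 0.96) and narrow for Gnas (SE 0.10).

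Several genes shared their highest and lowest line, though not the order in between, a pattern noted after the values were seen. Mest, Plagl1, Slc38a4 and the linked genes Dlk1, Meg3 and Dio3 were all highest in SLMAP3-/- replicate 1 and lowest in WT replicate 1, which held for 6 of 33 imprinted genes, with the 3 genes of 1 cluster counted separately, and 2.66% of all tested genes. Cdkn1c and Igf2r were lowest in the first and highest in the second of these lines, 2 of 33 against 2.06% of all tested genes. SLMAP3-/- replicate 4 was the lowest line for 9 of 33 imprinted genes (16.6% of all tested genes) and the highest for 0 (15.9%). WT replicate 1 was likewise the lowest line for 9 of 33 (17.9%), and SLMAP3-/- replicate 1 was the highest for 8 (10.9%). SLMAP3-/- replicate 1 also carried the Ddx4 value, and WT replicate 1 the Nes, Pdgfra, Dcn and Lum values given above. Of the fibroblast markers, Dcn, Lum, Pdgfra and S100a4 were lowest in WT replicate 1 and Col1a1 in SLMAP3-/- replicate 1. The other fibroblast markers were lowest in other lines. The part of these differences between lines in the levels of the imprinted genes was not tested.

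A second list held 49 other imprinted genes and neighbours of imprinted clusters. Of these 48 were listed and 35 passed the filter. By edgeR 0 of 35 had an adjusted p under 0.05, and at an unadjusted p under 0.05 there were 0 higher and 2 lower in SLMAP3-/- lines (0.847% of all tested genes were lower). These were Pon3, a paraoxonase gene (log2 fold change -0.30, SE 0.12), and Nap1l5, a histone chaperone gene at 1 to 32 counts (log2 fold change -1.52, SE 0.60). Nap1l5 was the 1 gene of 35 whose genotypes did not overlap (1.25% of all tested genes), by 0.2410 CPM in SLMAP3-/- replicate 3 against 0.2419 CPM in WT replicate 1. The median SD between lines was 0.47, and 15 of 35 genes were in the top 25% of all tested genes. The most variable were Cpa4, a carboxypeptidase gene beside Mest (0.145 to 3.50 CPM), the serotonin receptor gene Htr2a (0.374 to 13.5 CPM) and Smoc1, a matrix protein gene (1.56 to 45.6 CPM).

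Most genes for the upkeep of imprints were steady by comparison. Of 25 genes for imprint maintenance and methylation 21 passed the filter, and their median SD between lines was 0.15, not adjusted for level. Among the 21, 2 were in the top 25% of all tested genes, namely Dnmt3a (25.4 to 78.9 CPM) and Tet1 (2.47 to 7.97 CPM). Dnmt1, the maintenance methyltransferase, ranged from 394 to 469 CPM, its partner gene Uhrf1 from 212 to 264 CPM, and Ctcf, the insulator protein gene, from 110 to 146 CPM. Zfp57 ranged from 17.2 to 29.6 CPM, Zfp445, a second imprint-protecting zinc finger gene, from 80.0 to 107 CPM and their corepressor gene Trim28 from 324 to 433 CPM. By edgeR 0 of 21 had an adjusted p under 0.05, and 0 were higher and 0 lower at the unadjusted threshold. Ehmt2, a histone H3 lysine methyltransferase gene, was the 1 gene of 21 whose genotypes did not overlap (1.25% of all tested genes), at 180 ± 3.62 CPM (SD, n = 4) in SLMAP3-/- and 164 ± 5.55 CPM (SD, n = 4) in WT lines.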

How the data were processed

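RNA was sequenced from 4 SLMAP3-/- and 4 WT MEF lines with a stranded mRNA kit. The authors assigned reads to GENCODE M25 (GRCm38) with Salmon and deposited gene-level estimated counts that were scaled for transcript length and not normalized across lines. A deposited table of the authors' DESeq2 comparison, with fold changes and p-values, was not used. Tool versions and the strand setting are not given in the sources used here.

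Counts were first rounded. In edgeR 4.0.16 (R 4.3.3) genes were kept by filterByExpr (minimum count 10), libraries were scaled by TMM and the genotypes were compared by the quasi-likelihood test without covariates, with Benjamini-Hochberg adjustment over 15461 genes. Spread and covariation used log2 CPM with a prior count of 2. Permutation tests were exact and two-sided, written for this purpose with numpy 2.4.6. A correlation over 8 lines used all 40320 pairings, and fewer existed with 1 line omitted. Scripts were tested on simulated data. Depth was 49879059 to 63322486 counts per line.

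The members, lists and tests were chosen with earlier results of these data known, and expressed alleles are textbook background. Values in every line are given for members with an unadjusted p under 0.05 or genotypes that do not overlap, the 12 with the largest SD between lines, the 6 highest per kilobase and those in a pair with an adjusted p under 0.05, 16 genes in all. Exon lengths, positions and overlaps came from GENCODE M21 on GRCm38, and sequences from RefSeq on GRCm38.p6. The 8 members with no promoter in that table are Rtl1, Sgce, Peg10, Cdkn1c, Trappc9, H19, Peg13 and Impact.

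Alternatives were DESeq2 1.42.0, limma-voom (limma 3.58.1), DESeq2's size factors, no filter, at least 10 counts in every line, unrounded counts, the replicate number as a block, a covariate from 4 Y-linked genes, a prior count of 0.5, the dispersion over its trend, rho in place of r, removal of genotype means, and leaving out each line.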

Additional observations from a re-analysis of the deposited data

Results flagged for a closer look

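In each genotype the 4 lines of every tested imprinted gene were checked for a line far from the rest by Dixon's ratio, the gap to the nearest line over the whole range, against its 95% critical value. Of 66 such groups 3 exceeded it, where chance gives about 1 in 20, or 3.3. Mest was at 290 CPM in SLMAP3-/- replicate 1 against 26.9 to 48.7 CPM in the other SLMAP3-/- lines. Asb4 was at 1.90 CPM in SLMAP3-/- replicate 3 against 0.153 to 0.364 CPM in the others. Airn was at 3.89 CPM in SLMAP3-/- replicate 3 against 2.36 to 2.51 CPM in the others.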

How the results depend on the processing

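In all 16 alternative fits 0 imprinted genes had an adjusted p under 0.05, with a lowest adjusted p of 0.786 (no filter) to 1.00. Over all genes 1 was called in the reported fit, 11 by DESeq2, and 1 whichever line was left out. Imprinted genes with an unadjusted p under 0.05 were 2 as reported, 5 by DESeq2, 1 by limma-voom, 4 without a filter, 4 with at least 10 counts in every line, 0 with the Y-linked covariate, and 0 to 4 with 1 line left out. Pairs with an adjusted p under 0.05 were 4 as reported, 2 with DESeq2's size factors, 1 by rho, and 0 to 8 with 1 line left out, with 0 lacking SLMAP3-/- replicate 1 or WT replicate 1 and 8 lacking WT replicate 2. The count of 18 members in the top 25% of spread stayed at 15 to 18, with 15 among the 30 members that kept at least 10 counts in every line. The causes of these shifts were not tested.

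Same-numbered lines did not deviate together (r of deviations -0.16 to 0.19, above 0.1 in 1 of 4 pairs), so the numbers were not taken as a pairing. The deposited names of SLMAP3-/- replicate 3 and WT replicate 4 share a number, but a shared origin is not stated. The r of their deviations was 0.13. With the replicate number as a block, 0 genes had an adjusted p under 0.05, Slmap included, and 4 imprinted genes had an unadjusted p under 0.05.

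Of 254 log2 fold changes of the 16 named genes under the alternatives, 238 kept their direction and 16, in 5 genes, reversed. Grb10 was at -0.0031 by DESeq2 and with its size factors. With 1 line left out Grb10 ran from -0.066 to 0.073, Asb4 from -1.65 to 0.12, Zim1 from -0.18 to 0.97, Plagl1 from -0.24 to 0.52 and Cdkn1c from -0.44 to 0.19. Counting error is small for abundant members, whereas Phlda2, Zim1, Asb4 and Mirg rest on few counts.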

Other observations

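Phactr2, a phosphatase and actin regulator gene beside Plagl1 from the list of neighbours, was chosen here after its values were seen. It stood at 20.6, 11.8, 20.6 and 8.17 CPM in SLMAP3-/- and at 1.94, 15.7, 19.03 and 23.8 CPM in WT replicates 1 to 4. As for Plagl1, WT replicate 1 was the lowest line, but SLMAP3-/- replicate 1 was not the highest. The log2 fold change was 0.02 (SE 0.63) in edgeR.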
